A study of Homo sapiens with 12 samples.

Results

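Melanocyte identity and pigment production were followed through 10 genes, selected by a fixed list of symbols: the transcription factors MITF, SOX10 and PAX3, the melanin enzymes TYR, TYRP1 and DCT, the melanosome matrix and maturation genes PMEL and MLANA, and the melanosomal transporters OCA2 and SLC45A2. All 10 were present among 58307 gene rows. PolyA-enriched RNA had been sequenced from cultures labelled as 2 human melanoma lines, A375 and SK-MEL-28, that received either etoposide, a poison of topoisomerase II, or etoposide together with rapamycin, an inhibitor of mTOR that induces autophagy. There were 3 libraries in each of the 4 groups, described by the study as biological replicates, and every group received etoposide, so that no library shows the untreated state. Doses and times for these cultures are not given in the sources used here.

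In 6 of the 12 libraries, all with the same label, the data did not match the label of their cell line. Whether the 12 libraries come from 1 line or 2 was not tested, so a result seen under both labels may not be a result in 2 lines. The libraries of both labels were alike in which genes they expressed, but they separated by label: mean log2 CPM (counts scaled by TMM to a common library size) correlated with a Pearson r of 0.9812 across 20101 genes, a description over genes that share library preparation, while between single libraries r was 0.9577 to 0.97 across labels and 0.9833 to 0.9856 within a group. None of the genes above 5 CPM in every library of one label (11258 for A375 and 11209 for SK-MEL-28) had a mean under 0.1 CPM in the other. Groups are therefore called A375-labelled and SK-MEL-28-labelled below, and a difference between labels cannot be read as a difference between these 2 lines. The rapamycin comparisons stay within a label. Library totals ranged from 28189501 to 32499337 counts.

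MITF is the master regulator of the melanocyte lineage. SOX10 and PAX3, inherited from the neural crest, activate its melanocyte promoter, and MITF in turn binds E-box sequences in front of pigment genes, whose products build the melanosome and make melanin within it. In melanoma the MITF level also separates cell states, with differentiated cells high in MITF and less differentiated, more invasive cells low in MITF and high in genes such as AXL.

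SOX10 was abundant, and the other members were below the middle of the tested genes. Per kilobase of exon, SOX10 had a mean level of 79.7 CPM over the 12 libraries, above 97.5% of the 16709 tested genes with a known length. MITF followed at 2.74 CPM per kilobase, above 47.4% of genes, and PAX3 at 1.55. Below them came OCA2 at 0.702, PMEL at 0.546, SLC45A2 at 0.378, MLANA at 0.284, TYRP1 at 0.257, DCT at 0.151 and TYR at 0.0126 CPM per kilobase. The lowest SOX10 library, at 34.3 CPM per kilobase, lay above the highest library of each other member. Every other pair of neighbours in this order overlapped in the range over libraries. TYR, the rate-limiting enzyme of melanin synthesis, stood at 0 counts in 8 of the 12 libraries, and a count of 3 corresponds to 0.0923 to 0.106 CPM at this depth.

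**Figure D1:**
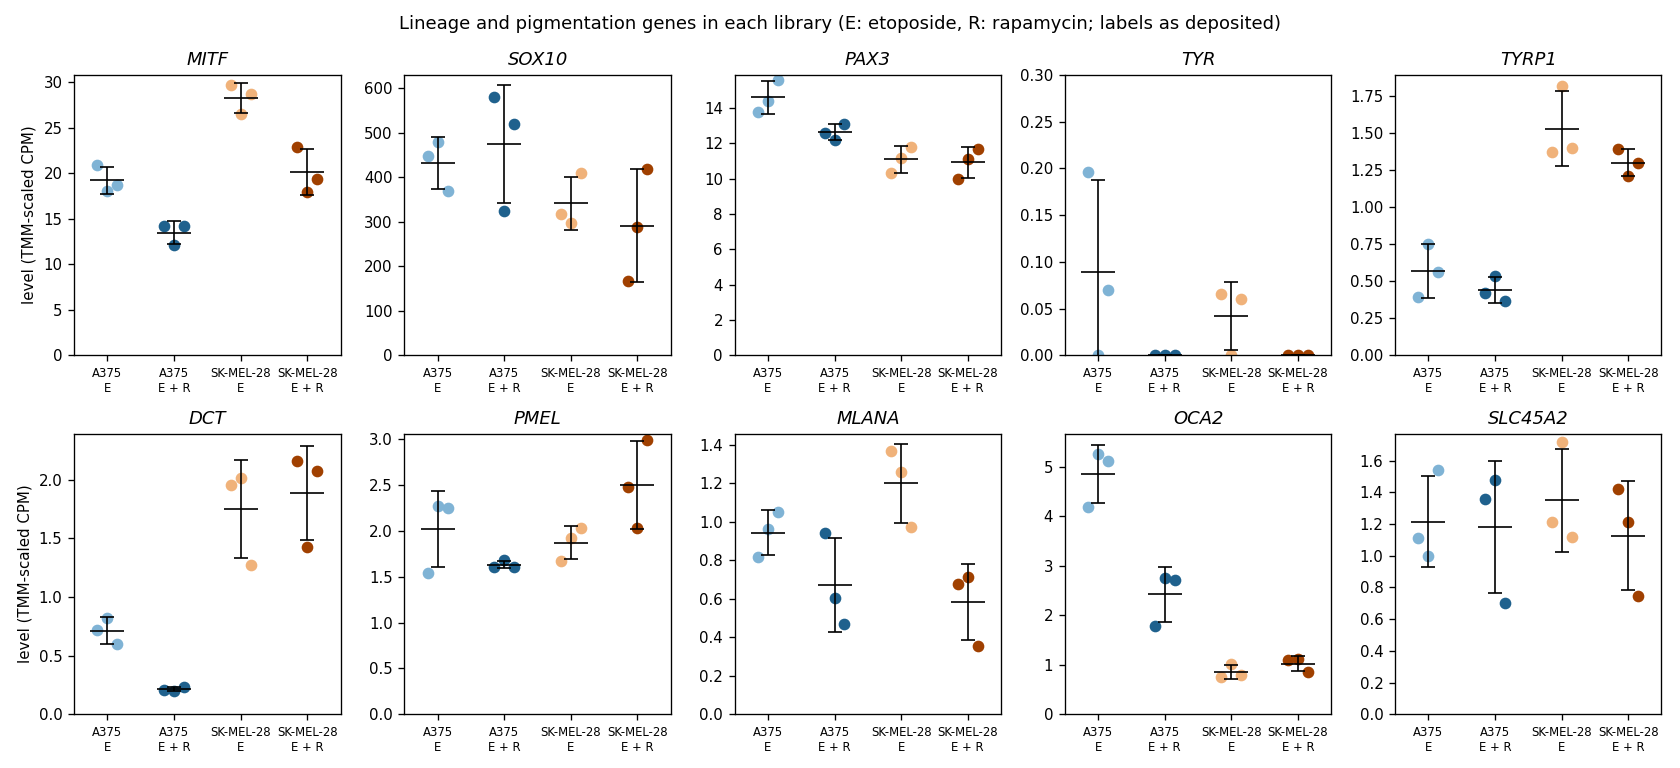
Level of each of the 10 genes (vertical axis, TMM-scaled CPM, from 0, a separate scale for each gene) in the 4 groups of 3 libraries; points are libraries, the horizontal bar is the mean and the whiskers are the SD. MITF points with rapamycin lie below those with etoposide within each label, OCA2 and DCT do so in A375-labelled libraries, and the 3 SOX10 points of a group spread over a range that overlaps that of the other groups.

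Sequences in front of these genes are shown because they carry the elements through which the lineage factors are known to act: the E-box core CATGTG, bound by MITF, in the pigment genes, and the cyclic AMP response element TGACGTCA in the melanocyte promoter of MITF. Each line gives the 250 bases before a RefSeq transcription start (GRCh38.p14), 5′ to 3′ on the strand of the gene, with CATGTG or its reverse complement CACATG, and TGACGTCA, in capitals.
MITF (start site 3), chr3:69936342-69936591, plus strand: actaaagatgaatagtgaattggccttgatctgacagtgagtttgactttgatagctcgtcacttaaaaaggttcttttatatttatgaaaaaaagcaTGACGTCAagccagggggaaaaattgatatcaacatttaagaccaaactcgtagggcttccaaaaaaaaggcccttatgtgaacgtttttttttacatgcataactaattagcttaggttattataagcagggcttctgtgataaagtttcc
TYR, chr11:89177625-89177874, plus strand: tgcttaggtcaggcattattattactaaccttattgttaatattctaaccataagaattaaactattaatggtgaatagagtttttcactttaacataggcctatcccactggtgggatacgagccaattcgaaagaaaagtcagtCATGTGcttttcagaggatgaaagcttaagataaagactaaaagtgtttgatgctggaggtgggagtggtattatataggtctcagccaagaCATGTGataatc
TYRP1, chr9:12693135-12693384, plus strand: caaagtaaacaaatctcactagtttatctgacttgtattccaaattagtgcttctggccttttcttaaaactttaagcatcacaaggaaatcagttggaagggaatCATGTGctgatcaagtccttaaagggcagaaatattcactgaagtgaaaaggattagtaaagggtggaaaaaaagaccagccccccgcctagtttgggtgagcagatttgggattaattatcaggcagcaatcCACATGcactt
DCT (start site 2), chr13:94479683-94479932, minus strand: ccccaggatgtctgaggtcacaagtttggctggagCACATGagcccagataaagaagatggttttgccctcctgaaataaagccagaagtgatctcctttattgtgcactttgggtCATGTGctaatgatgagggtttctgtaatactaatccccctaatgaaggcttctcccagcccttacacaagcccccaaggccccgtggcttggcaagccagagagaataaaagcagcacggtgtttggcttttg
OCA2, chr15:28099316-28099565, minus strand: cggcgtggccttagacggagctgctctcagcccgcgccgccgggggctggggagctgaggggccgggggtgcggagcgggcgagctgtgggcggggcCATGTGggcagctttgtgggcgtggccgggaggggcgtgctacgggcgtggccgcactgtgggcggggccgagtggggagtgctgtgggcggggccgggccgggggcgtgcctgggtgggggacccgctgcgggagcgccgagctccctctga
GPNMB, chr7:23246525-23246774, plus strand: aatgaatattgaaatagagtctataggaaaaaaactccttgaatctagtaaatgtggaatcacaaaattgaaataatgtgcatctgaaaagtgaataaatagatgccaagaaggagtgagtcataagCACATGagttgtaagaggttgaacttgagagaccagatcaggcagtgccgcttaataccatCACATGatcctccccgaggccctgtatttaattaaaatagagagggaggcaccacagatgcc

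RefSeq entries matched 7 of the 10 members. SOX10, PMEL and SLC45A2 were not matched. CATGTG, searched on both strands, occurred in 9.42% of 35116 windows of this length over all genes, and it was found in 4 of the 7 members. The share is over windows, whereas a member was counted if any of its start sites had a match, so the 2 are not in the same unit. Start site 1 of DCT had no CATGTG, and neither did any start site of MITF. TYR carried it 104 and 12 bases before the start, TYRP1 at 144 and 11, start site 2 of DCT at 215 and 134, and OCA2 at 153. GPNMB, a melanosomal glycoprotein and known MITF target that is described with the lists below, carried it 123 and 62 bases before its start. The longer form TCATGTG, which overlaps it and was in 2.52% of windows, occurred in TYR, TYRP1, DCT and GPNMB but not in OCA2. No match was found in PAX3 or MLANA. TGACGTCA, in 1.65% of windows, lay 152 bases before start site 3 of MITF. These matches are descriptions of the letters in the window. They were present in members whose level changed with rapamycin (DCT, OCA2) and in members for which no change passed the test (TYRP1).

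Whether rapamycin changed these genes was asked within each label, with etoposide + rapamycin compared with etoposide. A gene passed the test at an adjusted p under 0.05 by the quasi-likelihood test of edgeR (Benjamini-Hochberg, over every gene in the fit), and was called when its fold change was also over 1.5. A negative log2 fold change is lower with rapamycin. In bulk RNA, fewer cells with a transcript and less of it per cell cannot be told apart. MITF fell under both labels, and OCA2 and DCT fell in A375-labelled libraries. No member passed with a higher value under either label, with the exception of SOX10 when 1 library was left out (given below). In A375-labelled libraries 9 of the 10 members were expressed enough to be tested, and 3 of them passed, all lower, where 28.1% of all 18844 genes passed and 13.8% passed lower. Of these, 2 were called (OCA2 and DCT), both lower, against 5.89% of all genes, or 2.8% for lower calls. The median log2 fold change of the 9 was -0.35, against -0.005 over all genes, and 8 of 9 were negative. The groups did not overlap for 4 members, MITF, PAX3, DCT and OCA2, where 42.6% of all genes did not overlap. In SK-MEL-28-labelled libraries 1 of 9 members passed (MITF, lower), against 19.0% of 18897 genes, or 10.1% for lower values, and 0 were called, against 4.99%. At an unadjusted p under 0.05 there were 2, MITF and MLANA, and DESeq2 also called 0. The median was -0.23, against 0.005 over all genes, and 6 of 9 were negative. MITF, PMEL and MLANA did not overlap between groups, where 35.9% of all genes did not.

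**Figure D2:**
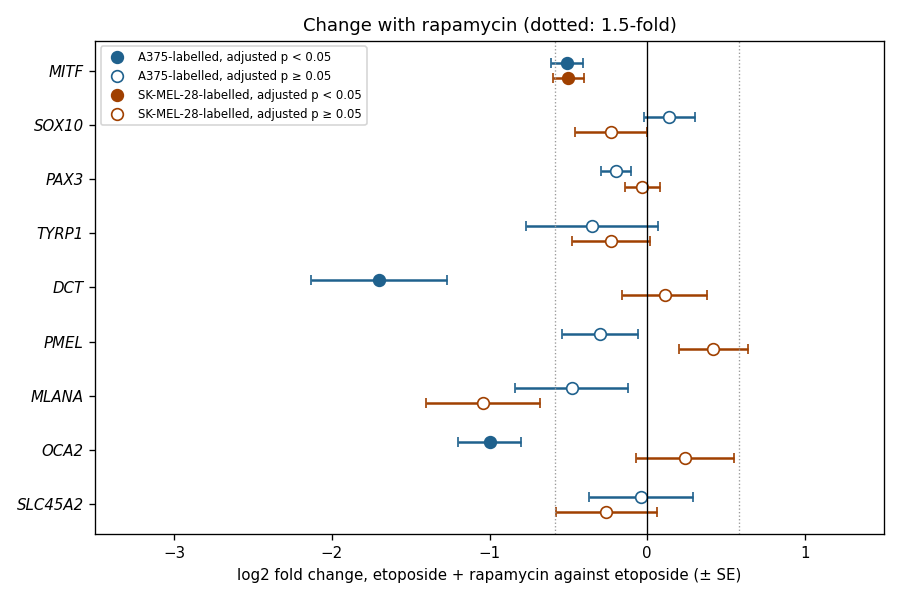
Log2 fold change of etoposide + rapamycin against etoposide (horizontal axis) for the 9 members tested, in A375-labelled (blue) and SK-MEL-28-labelled (brown) libraries; whiskers are the SE, filled points passed at an adjusted p under 0.05 and dotted lines mark 1.5-fold. MITF lies near -0.5 under both labels, whereas DCT (-1.70 and 0.11) and OCA2 (-1.0 and 0.24) lie apart.

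MITF (chr3:69739456-69968336, plus strand, GRCh38) had 639, 528 and 533 counts in the 3 A375-labelled libraries with etoposide and 405, 361 and 425 with rapamycin added. In SK-MEL-28-labelled libraries it had 909, 803 and 946 counts with etoposide and 710, 504 and 597 with rapamycin. Every rapamycin library lay below every etoposide library of its label. The level went from 19.2 ± 1.47 to 13.5 ± 1.20 CPM (mean ± SD, n = 3) in the former, a log2 fold change of -0.51 (SE 0.10, edgeR adjusted p = 0.00248), and from 28.3 ± 1.62 to 20.1 ± 2.53 CPM in the latter, a log2 fold change of -0.50 (SE 0.097, edgeR adjusted p = 0.0032). Neither change reached 1.5-fold, at 1.42 and 1.41. MITF passed under all 14 alternatives in each label. The difference between the 2 responses was 0.02 on the log2 scale (95% interval -0.26 to 0.29). Counts are per gene, so the isoforms from the different MITF promoters were not separated.

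SOX10 (chr22:37970686-37987422, minus strand), the neural crest factor, had 13693, 13983 and 10483 counts in A375-labelled libraries with etoposide and 16540, 9654 and 15503 with rapamycin. In SK-MEL-28-labelled libraries it had 9722, 9002 and 13467 counts, and 5134, 8084 and 12916 with rapamycin. The groups overlapped under both labels. Log2 fold changes were 0.14 (95% interval -0.18 to 0.45) and -0.23 (95% interval -0.69 to 0.22), with edgeR adjusted p of 0.572 and 0.543. Single libraries decided these values. In A375-labelled libraries the log2 fold change was -0.03 without rapamycin replicate 1 and 0.35 without rapamycin replicate 2, and the latter passed (edgeR adjusted p = 0.0217). In SK-MEL-28-labelled libraries it was 0.05 without rapamycin replicate 1 and -0.59 without rapamycin replicate 3 (edgeR adjusted p = 0.852 and 0.0567). The spread between replicates limited this comparison. The SD of the log2 deviations of SOX10 from its group means was 0.37, rank 28 from the highest among 8699 genes with a log2 CPM over 4, where the median SD was 0.068. POLR2F, a subunit shared by RNA polymerases, overlaps SOX10 exons on the opposite strand, and it ranked 43 with an SD of 0.29. The SK-MEL-28-labelled rapamycin libraries deviated by -0.71, 0.09 and 0.63 for SOX10 and by -0.68, 0.24 and 0.45 for POLR2F. In the A375-labelled rapamycin libraries the deviations were 0.33, -0.50 and 0.17 for SOX10, against 0.06, -0.16 and 0.10 for POLR2F. Whether the counting used strand is not given in the sources used here, so reads of these 2 genes may be shared, and the part of this in the spread of SOX10 was not tested.

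**Figure D3:**
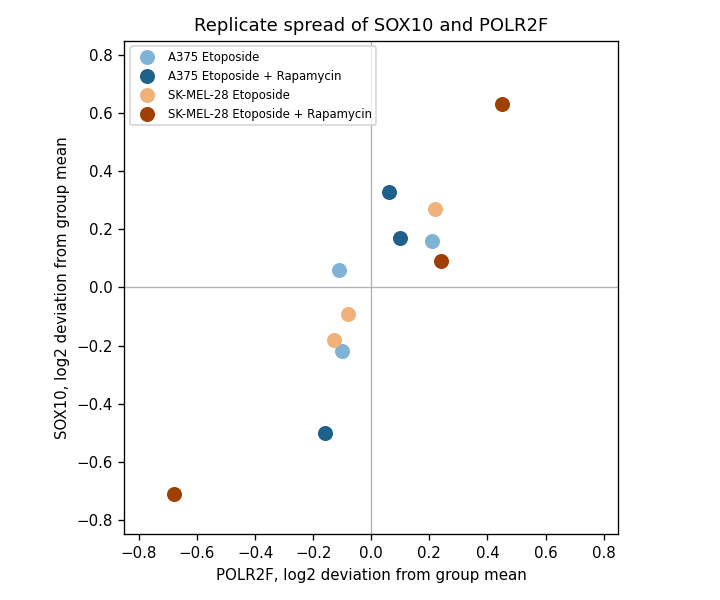
Deviation of SOX10 (vertical axis) against that of POLR2F (horizontal axis) from the mean of their own group, in log2 units, for the 12 libraries coloured by group. The lowest point on both axes is SK-MEL-28-labelled etoposide + rapamycin replicate 1 (-0.71 and -0.68) and the highest on both is replicate 3 of the same group (0.63 and 0.45).

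PAX3 (chr2:222199887-222298998, minus strand), which acts with SOX10 on MITF, had 421, 419 and 444 counts in A375-labelled libraries with etoposide and 361, 362 and 391 with rapamycin. The groups did not overlap, but the log2 fold change of -0.20 (SE 0.095) did not pass (edgeR adjusted p = 0.137). SK-MEL-28-labelled libraries had 314, 339 and 389 counts against 309, 310 and 360, which overlapped, with a log2 fold change of -0.03 (95% interval -0.24 to 0.19).

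Among the melanin enzymes, TYR (chr11:89177875-89295759, plus strand) had 6, 0 and 2 counts in A375-labelled and 2, 0 and 2 counts in SK-MEL-28-labelled libraries with etoposide, and 0 in each of the 6 libraries with rapamycin. It did not pass the filter on low counts and was not tested. TYRL, a pseudogene that resembles part of TYR, had 0 to 2 counts, so how reads were divided between these rows is uncertain.

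DCT (chr13:94436811-94479682, minus strand), the dopachrome tautomerase, had 22, 24 and 17 counts in A375-labelled libraries with etoposide and 6, 6 and 7 with rapamycin. All 3 rapamycin libraries lay below the etoposide libraries. DCT fell 3.26-fold there, a log2 fold change of -1.70 (SE 0.43, edgeR adjusted p = 0.0106). It passed in all 11 alternatives that gave an adjusted p, and DESeq2 gave none. The SK-MEL-28-labelled libraries had 60, 61 and 42 counts with etoposide and 67, 40 and 64 with rapamycin. These groups overlapped, with a log2 fold change of 0.11 (95% interval -0.41 to 0.63).

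TYRP1 (chr9:12685439-12710285, plus strand), a melanosomal enzyme related to tyrosinase, had 12, 22 and 16 counts with etoposide and 12, 16 and 11 with rapamycin in A375-labelled libraries. In SK-MEL-28-labelled libraries it had 42, 55 and 46 counts against 43, 34 and 40. Both pairs of groups overlapped, and the log2 fold changes of -0.35 (SE 0.42) and -0.23 (SE 0.25) did not pass. TYRP1 shares exonic sequence with the antisense gene LURAP1L-AS1, which had 1 to 10 counts per library.

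Of the melanosome genes, PMEL (chr12:55954105-55973317, minus strand), which forms the fibrils on which melanin is laid down, had 47, 66 and 64 counts in A375-labelled libraries with etoposide and 46, 50 and 48 with rapamycin. The SK-MEL-28-labelled libraries had 51, 58 and 67 counts, and 77, 57 and 92 with rapamycin. Scaled to CPM, the SK-MEL-28-labelled groups did not overlap, yet the log2 fold change of 0.42 (SE 0.22) did not pass (edgeR adjusted p = 0.222), and neither did -0.30 (SE 0.24) in A375-labelled libraries. PMEL overlaps exons of CDK2 on the opposite strand. CDK2, a cell cycle kinase, had 1593 to 3145 counts and rose under both labels (log2 fold changes 0.24 and 0.47), so the low PMEL counts are uncertain. MLANA (chr9:5890889-5910606, plus strand), a melanosome protein that interacts with PMEL, had 42, 38 and 32 counts in SK-MEL-28-labelled libraries with etoposide and 21, 20 and 11 with rapamycin. These groups did not overlap, and the level was 2.06-fold lower (log2 fold change -1.04, SE 0.36), which missed the threshold with an edgeR adjusted p of 0.0589. It passed in 3 of 14 alternatives, over which the adjusted p ranged from 0.0312 to 0.189. In A375-labelled libraries MLANA had 25, 28 and 30 counts against 27, 18 and 14, which overlapped (log2 fold change -0.48, SE 0.36).

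OCA2 (chr15:27754875-28099315, minus strand), a melanosomal anion channel that raises luminal pH, had 128, 153 and 146 counts in A375-labelled libraries with etoposide and 51, 82 and 81 with rapamycin. The groups did not overlap. OCA2 fell 2.00-fold, from 4.86 ± 0.580 to 2.42 ± 0.550 CPM (mean ± SD, n = 3), a log2 fold change of -1.0 (SE 0.20, edgeR adjusted p = 0.00295), and it was called in all 14 alternatives. In SK-MEL-28-labelled libraries it had 23, 31 and 26 counts with etoposide and 34, 31 and 26 with rapamycin, which overlapped (log2 fold change 0.24, 95% interval -0.37 to 0.86). SLC45A2 (chr5:33944623-33984693, minus strand), a melanosomal transporter, had 34, 29 and 44 counts against 39, 44 and 21 in A375-labelled libraries. The SK-MEL-28-labelled libraries had 37, 52 and 37 against 44, 34 and 23. Both pairs overlapped, with log2 fold changes of -0.04 (SE 0.33) and -0.26 (SE 0.32).

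Whether the response to rapamycin differed between the labels was tested as an interaction over all 12 libraries, with no fold change threshold. Of the 9 members, 2 passed, DCT and OCA2, both with a higher value in SK-MEL-28-labelled libraries, where 5.62% of 20101 genes passed and 2.66% passed in that direction. The difference was 1.82 on the log2 scale for DCT (SE 0.45, edgeR adjusted p = 0.0257) and 1.25 for OCA2 (SE 0.33, edgeR adjusted p = 0.0364). Both calls lie near the threshold. That of DCT was kept in 8 of 17 alternatives with an adjusted p. It was lost without any one of the A375-labelled rapamycin replicates 1, 2 and 3, etoposide replicate 2, the SK-MEL-28-labelled rapamycin replicates 1 and 3 or etoposide replicate 3 (adjusted p from 0.0541 to 0.0606). That of OCA2 was kept in 10 of 19. It was lost without any one of the A375-labelled rapamycin replicates 1 and 3, etoposide replicates 2 and 3, the SK-MEL-28-labelled rapamycin replicates 1 and 2 or etoposide replicates 1 and 3 (adjusted p from 0.0569 to 0.0901). The difference for PMEL was 0.72 (SE 0.31, edgeR adjusted p = 0.202).

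Between the labels, with etoposide alone, 5 of 9 members passed, where 31.8% of 20101 genes did, and 3 were called, where 12.5% were. The groups did not overlap for 5, where 43.3% of genes did not. DCT was 2.44-fold and TYRP1 2.67-fold higher in SK-MEL-28-labelled libraries (log2 differences 1.29, SE 0.29, and 1.42, SE 0.31, edgeR adjusted p 0.00235 and 0.0017). OCA2 went the other way and was 5.66-fold lower (log2 difference -2.50, SE 0.23, edgeR adjusted p = 2.78e-07). MITF was 1.47-fold higher (0.56 on the log2 scale, SE 0.098) and PAX3 1.31-fold lower (-0.39, SE 0.096), with edgeR adjusted p of 0.0003 and 0.00419. The label with more MITF had more TYRP1 and DCT and less OCA2.

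With rapamycin added, 6 of 9 members passed between the labels, where 37.8% of genes did, and 5 were called, where 14.4% were. The groups did not overlap for 6, where 49.2% of genes did not. DCT differed 8.63-fold (log2 difference 3.11, SE 0.34, edgeR adjusted p = 1.48e-06), TYRP1 2.92-fold and OCA2 2.38-fold, in the same directions as with etoposide alone. MITF was 1.49-fold higher in SK-MEL-28-labelled libraries (log2 difference 0.57, SE 0.10). The calls of SOX10 (log2 difference -0.70, SE 0.25, edgeR adjusted p = 0.032) and PMEL (0.62, SE 0.22, edgeR adjusted p = 0.0369) were less stable. SOX10 was called in 14 of 20 alternatives and was lost without any one of the A375-labelled rapamycin replicates 1 and 3 or the SK-MEL-28-labelled rapamycin replicates 1 and 2 (adjusted p from 0.0782 to 0.145). PMEL was called in 13 of 20 and was lost without any one of the rapamycin replicates 1, 2 and 3 of A375-labelled or 1 and 3 of SK-MEL-28-labelled libraries (adjusted p from 0.0715 to 0.16).

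The genes around this programme were read from lists of known function. The lists were chosen with earlier results of these data known, so their counts beside the shares over all genes are descriptions only. Of the genes of the low-MITF melanoma state, 9 of the 14 tested in A375-labelled libraries rose and 1 fell, where 14.3% of all genes passed higher and 13.8% lower, and their median log2 fold change was 0.45. In SK-MEL-28-labelled libraries 7 rose and 2 fell, where 8.83% of genes passed higher and 10.1% lower, with a median of 0.29. These counts are of genes that passed. With a fold change also over 1.5, 3 were called higher and 0 lower in A375-labelled libraries, where 5.89% of all genes were called. In SK-MEL-28-labelled libraries 0 were called higher and 1 lower (LOXL2), where 4.99% of all genes were called. AXL, a receptor tyrosine kinase, rose under both labels, from 177 to 269 CPM (log2 fold change 0.61) and from 191 to 276 CPM (0.52). FOSL1, an AP-1 transcription factor, rose by 0.70 and 0.57 on the log2 scale. TNC, a matrix glycoprotein, rose in A375-labelled libraries (0.68) and had a value of -0.04 in SK-MEL-28-labelled ones. CD44, a hyaluronan receptor, gave 0.00 and 0.25, of which the second passed. LOXL2, a lysyl oxidase, fell under both labels (-0.56 and -0.98). Scaled by library totals in place of TMM, the list gave 8 higher and 1 lower in A375-labelled and 7 higher and 2 lower in SK-MEL-28-labelled libraries.

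**Figure D4:**
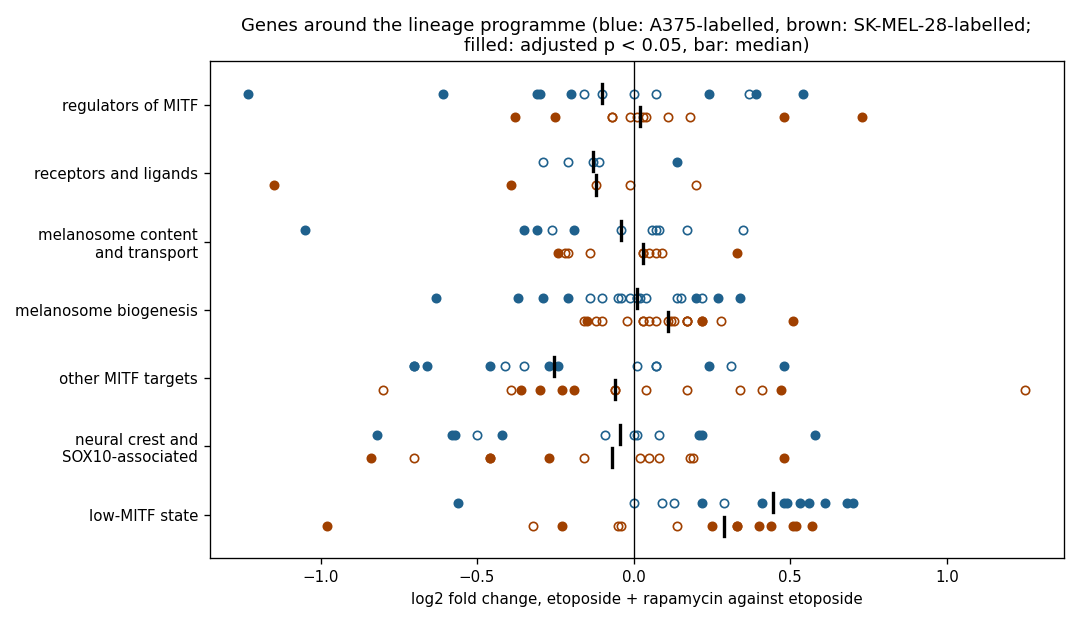
Log2 fold change of etoposide + rapamycin against etoposide (horizontal axis) for the tested genes of 7 lists, in A375-labelled (blue) and SK-MEL-28-labelled (brown) libraries; filled points passed at an adjusted p under 0.05 and the bars are medians. The low-MITF state list has medians of 0.45 and 0.29, and the medians of the other lists lie between -0.26 and 0.11.

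Among 14 tested MITF targets outside the members, 2 rose and 5 fell in A375-labelled libraries and 1 rose and 4 fell in SK-MEL-28-labelled ones. Over all genes, 14.3% passed higher and 13.8% lower in the former, and 8.83% and 10.1% in the latter. The same shares stand beside the list counts in the rest of this paragraph and in those that follow. HIF1A, the hypoxia-inducible factor subunit, fell by 0.66 and 0.23 on the log2 scale, and ACP5, a lysosomal acid phosphatase, fell by 0.70 and 0.36. The targets that rose were CDK2, under both labels (0.24 and 0.47), and BCL2A1, in A375-labelled libraries (0.48). In SK-MEL-28-labelled libraries BCL2A1 gave 1.25, which did not pass (edgeR adjusted p = 0.0519). DIAPH1, an actin nucleator, gave 0.07 and -0.19, of which the second passed, and TBC1D16, a Rab GTPase-activating protein, gave 0.07 and -0.06 with neither passing. For melanosome content and transport, 0 rose and 4 fell of 11 tested in A375-labelled libraries, and 1 rose and 1 fell of 10 in SK-MEL-28-labelled ones. GPNMB fell under both labels, from 173 to 83.1 CPM (log2 fold change -1.05, SE 0.051, edgeR adjusted p = 8.3e-08) and from 205 to 174 CPM (-0.24, SE 0.062, edgeR adjusted p = 0.016). MYO5A, the motor that carries melanosomes, gave 0.06 and 0.05, and MFSD12, a melanosomal and lysosomal transporter, -0.04 and 0.09, with no change passing. Melanosome biogenesis genes were mixed, with 3 higher and 4 lower of 19 in A375-labelled and 2 higher and 1 lower in SK-MEL-28-labelled libraries. With library totals the former became 1 higher and 5 lower. LYST, a regulator of lysosome-related organelles, fell in A375-labelled libraries (-0.63), while the tetraspanin CD63 gave -0.05 and 0.05.

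In a list of regulators of MITF and factors linked to it, 3 rose and 5 fell of 13 tested in A375-labelled libraries. In SK-MEL-28-labelled ones 2 rose and 2 fell of 12. FOXD3, a neural crest factor that represses MITF, fell under both labels (-0.61 and -0.38), whereas POU3F2, another known repressor, rose under both (0.39 and 0.73). IRF4, a factor that acts with MITF on TYR, fell in A375-labelled libraries (-1.23) and was not tested in the others. CTNNB1 (beta-catenin) and SOX5 fell in A375-labelled libraries (-0.20 and -0.30) and gave -0.07 and 0.01 in SK-MEL-28-labelled ones. TBX2 rose in the former (0.24) and fell in the latter (-0.25). The relatives of MITF, which share its DNA-binding domain and respond to mTOR at the protein level, did not pass under either label: TFE3 gave 0.13 and -0.06, TFEB 0.00 and 0.18, and TFEC -0.80 and -0.29. Of 9 receptor and ligand genes 5 were tested, with 1 higher in A375-labelled and 2 lower in SK-MEL-28-labelled libraries. The neuregulin receptor ERBB3 rose in the former (0.14), a call that library totals ended. KITLG, the ligand of KIT, and EDNRB, an endothelin receptor, fell in the latter (-1.15 and -0.39), and MC1R, the melanocortin receptor, gave -0.11 and -0.01.

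Neural crest and SOX10-associated genes went both ways, with 3 higher and 4 lower of 12 in A375-labelled and 1 higher and 3 lower in SK-MEL-28-labelled libraries. NGFR, the low-affinity neurotrophin receptor, fell by 0.57 and 0.27 on the log2 scale. L1CAM, an adhesion molecule, rose in A375-labelled libraries (0.21) and fell in SK-MEL-28-labelled ones (-0.84), and TFAP2B gave 0.22 and 0.18, of which the first passed.

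By pattern, the genes most like MITF over the 12 libraries, after log2 CPM was centred on the mean of each label, were GDE1 (Pearson r = 0.985), PARP9 (0.981), SORCS1 (0.976), PIP5K1A (0.976) and NID1 (0.974), out of 12318 genes compared. These values describe 12 points that share their libraries and their scaling. The centring kept the difference between etoposide and rapamycin, in which MITF fell under both labels. A lower value with rapamycin was thus part of how these genes were chosen, and is not a separate result. SORCS1, a sorting receptor, fell by 0.82 and 0.75 on the log2 scale, and PIP5K1A gave -0.11 and -0.09 with neither passing.

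Markers of other cell types were summed for each library. The 6 keratinocyte markers reached 48.1 to 72.9 CPM, most of it KRT10, with KRT14 next and 0 of 2 tested passing under either label. DSG3 was at 0 in both rapamycin groups, and KRT1 in A375-labelled etoposide and SK-MEL-28-labelled rapamycin libraries. The 7 leukocyte and endothelial markers reached 25.3 to 58.7 CPM, mostly CD68, which is also a lysosomal protein. CD68 rose under both labels (0.53 and 0.64, edgeR adjusted p = 0.0314 and 0.0384), although its groups overlapped under each label. CD3E was at 0 in all SK-MEL-28-labelled rapamycin libraries. PECAM1 fell in SK-MEL-28-labelled libraries (-0.70). Of the 5 fibroblast markers 4 were tested, of which 2 fell in A375-labelled and 1 in SK-MEL-28-labelled libraries and none rose, with medians of -0.68 and -0.62. The sum of the 5 was 17.7 to 22.5 CPM with etoposide and 13.4 to 13.6 with rapamycin in A375-labelled libraries, and 31.6 to 39.3 against 21.4 to 24.9 CPM in SK-MEL-28-labelled ones. LUM fell under both labels (-0.73 and -0.66) and DCN in A375-labelled libraries (-0.63). No fibroblast marker was at 0 in all libraries of a group, and their part in the changes above was not tested.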

How the data were processed

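PolyA-enriched RNA of 12 libraries was sequenced on an Illumina NovaSeq. Alignment to GRCh38 was done by the authors with HISAT 2.2.0 and conversion with Samtools 1.3.1, and StringTie 2.1.4 gave expression per gene of Ensembl release 90. The authors deposited raw counts per gene and library, without normalization or pooling. Rows that name no gene, 0.000991% to 0.00529% of a library, were left out. How coverage became counts is not given in the sources used here, and rows at 2 outnumbered rows at 1 in 12 of 12 libraries, so a count may not be 1 fragment and counting error was not derived from it. Floors of 3 counts cover counting error only.

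Libraries were grouped by the labels. Tests used edgeR 4.0.16 in R 4.3.3 (filterByExpr with a minimum count of 10, TMM, quasi-likelihood), within each label for rapamycin and over 12 libraries for the other comparisons, with p-values adjusted by Benjamini-Hochberg over every gene in the fit. The standard error is the log2 fold change over the square root of F. Fold change thresholds follow the study's methods. On simulated counts with 200 genes changed 2-fold, the test recovered 174 with 9 false calls for rapamycin in A375, 165 with 7 in SK-MEL-28 and 139 with 12 for the difference. The simulation gave every gene the same spread and drew the changed genes from all levels. It therefore does not measure how the test performs on genes with low counts, as in most members, or with a wide spread, as in SOX10. Positions and exon lengths came from GENCODE release 44 (GRCh38), and promoter sequences from RefSeq (GRCh38.p14).

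The members and lists were chosen with earlier results of these data known. Named genes were all members and, of each list, the 3 with the highest level and up to 3 called with the largest change. Outside this rule, BCL2A1 and CDK2 were named as the MITF targets that rose. The 5 genes most like MITF had at least 100 counts on average in each label. Alternatives were DESeq2 1.42.0, RLE, library totals, 2 filters, one fit, the replicate block, no fold threshold and each library left out, and, chosen after seeing the data, halved counts. The values of 1 list gene that this rule names are not reported here, and counts over its list include it.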

Additional observations from a re-analysis of the deposited data

Results flagged for a closer look

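Of 52 members and list genes chosen by the naming rule, 50 were tested for a difference of the response, and 13 of these responded to rapamycin differently under the 2 labels by the test of the difference itself (edgeR interaction over 12 libraries, adjusted p under 0.05), where 5.62% of 20101 genes did. Values are the log2 fold change in SK-MEL-28-labelled minus that in A375-labelled libraries. Of the members, DCT differed by 1.82 and OCA2 by 1.25, with calls near the threshold (edgeR adjusted p = 0.0257 and 0.0364). GPNMB, which fell under both labels, differed by 0.81 (edgeR adjusted p = 3.43e-05). L1CAM differed by -1.05 (edgeR adjusted p = 1.74e-06) and TBX2 by -0.48 (edgeR adjusted p = 0.00205), and each rose in A375-labelled and fell in SK-MEL-28-labelled libraries. In the low-MITF state list TNC differed by -0.72, LOXL2 by -0.41 and CD44 by 0.26 (edgeR adjusted p = 0.00129, 0.00352 and 0.0118). HIF1A differed by 0.44 and LYST by 0.47 (edgeR adjusted p = 0.000666 and 0.0147). DIAPH1 at -0.26, SOX5 at 0.32 and KITLG at -0.93 also lay near the threshold (edgeR adjusted p = 0.0323, 0.0388 and 0.0477). Apart from the members, these genes were named for their level or their change in the same libraries. The share of them that passed therefore cannot be compared with that of all genes. Since the labels are in doubt, the differences are between sets of libraries.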

How the results depend on the processing

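No member reversed direction where it was called. Of the values of single members under the alternatives, 729 kept their side of the threshold, 31 lost it and 10 gained it. MITF passed throughout in the rapamycin comparisons, as did OCA2 in A375-labelled libraries. Apart from MITF, SOX10 and PAX3, no member exceeded 153 counts in any library, and SOX10 was limited by its spread between replicates. How far low counts set the other results was not tested.

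Without a fold change threshold, 5295 genes passed for rapamycin in A375-labelled libraries (1109 with it), 3582 in SK-MEL-28-labelled ones (943), 6392 between labels with etoposide (2522) and 7595 with rapamycin (2894). Members then numbered 1 in SK-MEL-28-labelled libraries (0) and 5 between labels with etoposide (3). Members called for rapamycin in A375-labelled libraries went from 2 to 1 with DESeq2, which gave DCT no adjusted p, with a filter of 10 counts in every library, which DCT did not pass, and with halved counts, under which it was also not tested. In SK-MEL-28-labelled libraries they went from 0 to 1 with that filter, halved counts and one fit of 12 libraries (MLANA each time) and without rapamycin replicate 1 (MITF), so that leaving out a library gave 0 to 1. For the difference of the response, 1130 genes became 1811 with DESeq2, 658 when any gene with 1 count in a library was kept and 594 to 1315 with a library left out, lowest without A375-labelled rapamycin replicate 3. Counts also moved over 1.5 times without A375-labelled etoposide replicate 3 (642) or SK-MEL-28-labelled rapamycin replicate 2 (710), etoposide replicate 2 (616) or etoposide replicate 3 (705). The 2 members became 1 with DESeq2, 0 with a filter of 1 count, 1 with a filter of 10 counts and 0 to 2 with a library left out. Between labels with rapamycin, the 5 members became 3 with a filter of 1 count and 3 to 5 with a library left out, lowest without SK-MEL-28-labelled rapamycin replicate 1. Where no reason is given above, the cause was not tested.

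Replicate numbers did not pair the libraries (correlations of same-numbered deviations from -0.03 to 0.021). With the replicate block, calls were 1034, 897, 620, 2412 and 2807 in the 5 comparisons in the order of the report, and members 2, 0, 1, 3 and 4. DCT in the difference then had an adjusted p of 0.0758 and PMEL between labels with rapamycin 0.0577 (edgeR). Library totals in place of TMM moved the share of higher genes among those called in A375-labelled libraries from 52.5% to 41.5% (468 higher, 659 lower), with the median of all genes at -0.05.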
